A study of Rhinolophus ferrumequinum with 8 samples.

Results

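In spleen of the greater horseshoe bat, 20 genes had their highest level at early arousal, 2 h after capture of hibernating animals. They were chosen by their measured levels: a gene was counted if the lower of the 2 arousal libraries was at least 1.5 times the highest of the 6 other libraries and the arousal mean was at least 5. The rule used the deposited values with no pseudocount, and 20 of 19652 genes met it, which is 0.102% of the table. Of these, 18 carry a gene symbol and 2 carry only a locus number. The rule uses the arousal level and the level in every other state, so that level and its ratio to the other states are described below without a test.

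Wild female bats (Rhinolophus ferrumequinum) gave the spleens, with 2 biological replicates in each of 4 states. Summer active bats were taken in July, and the torpor, arousal and winter active bats in November. Torpor is the cold, inactive phase of hibernation; arousal libraries were made 2 h after capture and winter active libraries 26 h after capture. No treatment or genetic change is named, and age is not given. The labels do not say that the same animals were followed from state to state, so the main fit used no pairing. The p-values set a difference between states against the spread between libraries of the same state. Values are transcript abundances per length (TPM) in the authors' own rescaled units, and are called rescaled TPM. Without read counts the sequencing depth is unknown, so no counting error can be given.

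During arousal a hibernator leaves torpor by burning fat and glycogen, and the body warms from near ambient temperature back to the active range. The spleen, which stores lymphocytes and filters old red cells, warms with it, and transcription and translation, which are slow in the cold, resume. Interleukin 1 receptors, zinc importers, regulators of glycogen and of nutrient sensing, ceramidases and clock genes belong to pathways that respond to inflammation, hormones or nutrient supply in many mammalian tissues.

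The 20 genes were of low to moderate level. Their arousal means ranged from 5.76 to 41.5 rescaled TPM with a median of 10.8, against a median of 22.9 for the 10420 genes with an arousal mean of at least 5. The ratio of the lower arousal library to the highest other library ran from 1.51 to 1.85 with a median of 1.61, and no gene reached a ratio of 2. Among those 10420 genes the median ratio was 0.690, 1167 genes (11.2%) had both arousal libraries above the other 6, and 20 (0.192%) passed 1.5. The same rule gave 285 genes (1.45%) with summer active highest, 13 (0.0662%) with torpor highest and 7 (0.0356%) with winter active highest. These counts moved with the scale: with columns rescaled to 1000000 they were 131 for summer active, 92 for arousal, 7 for torpor and 10 for winter active. Under median-of-ratios rescaling they were 278 for summer active, 26 for torpor, 17 for arousal and 6 for winter active, so torpor then stood above arousal. Winter active held the highest of the 6 other values for 15 of the 20 genes, torpor for 3 and summer active for 2. Summer active 2 was the lowest library for 12 of the 20, counting LOC117030569, which was at 0 there and also in torpor 2 and winter active 2. Apart from that tie, no arousal or winter active library was the lowest for any.

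**Figure D1:**
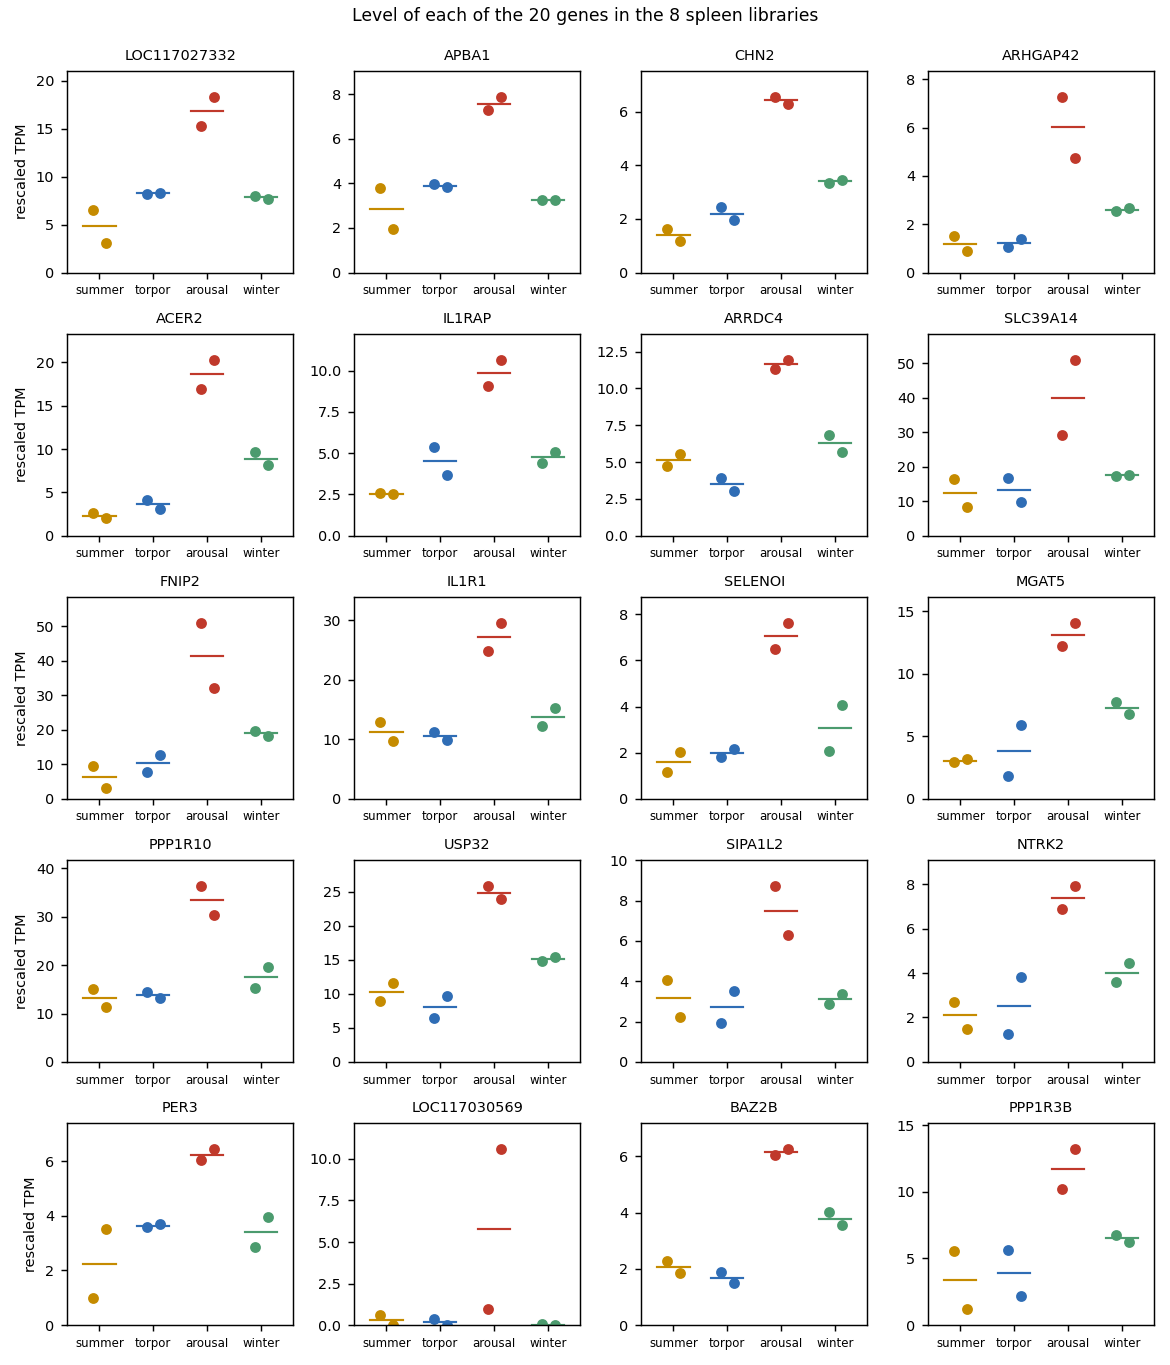
Level of each of the 20 genes (rescaled TPM, linear axis from 0) in the 2 libraries of each state, ordered by the ratio of the lower arousal library to the highest other library. Points are libraries, replicate 1 to the left, and bars are state means; both arousal points lie above all others in every panel, as the rule requires, and in 15 of 20 panels the next highest point is a winter active library.

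**Figure D2:**
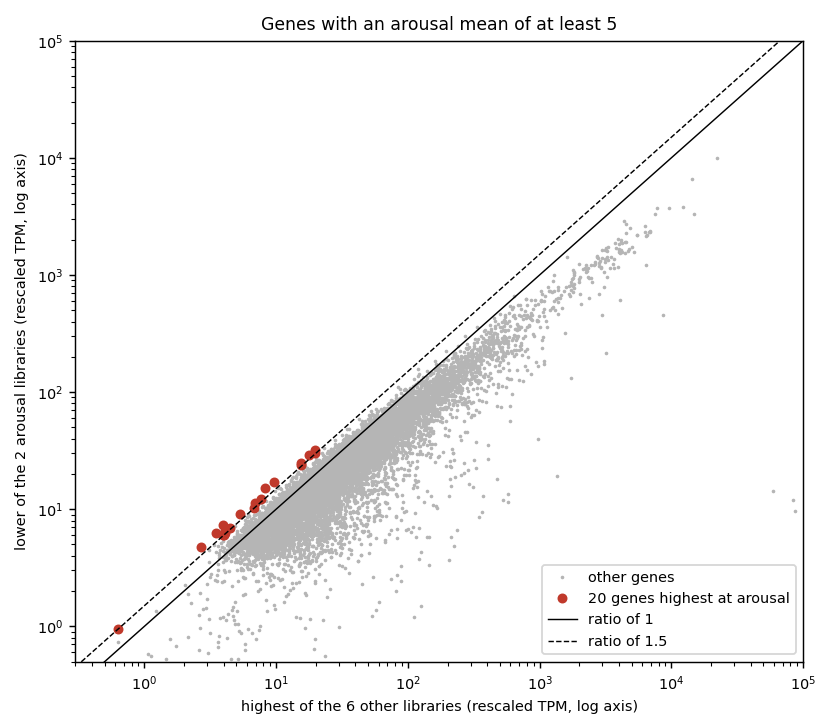
Lower of the 2 arousal values against the highest of the 6 other values (rescaled TPM, log axes) for genes with an arousal mean of at least 5. The 20 genes lie on or above the dashed line of ratio 1.5, close to it and at the low end of the level range, while most genes lie under the solid line of ratio 1; a few genes below the axis limits are not drawn.

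The libraries differed in transcripts of other organs. The summed level of 17 hepatocyte markers was 23848 in arousal 2 and 1463 in arousal 1, against 3507 in summer active 1, 1164 in torpor 1 and 51.6 to 119 in the other 4 libraries. Pancreatic acinar markers (8 genes) summed to 971 in arousal 2 and 51.8 in arousal 1, against 1642 in torpor 1 and 21.9 to 402 in the other 5 libraries. Spleen macrophage markers (18 genes) summed to 9798 to 29249 and B cell markers (16 genes) to 803 to 3487, so transcripts of both cell types were present in every library, and no marker of these 4 lists was at 0 in all 8. No marker gene of any of 13 cell type lists was among the 20 genes. Of the 13 lists, 0 had a summed level highest in both arousal libraries, and the erythroid list was lowest in both, at 56.5 and 53.8 against 63.6 to 9337 elsewhere. The part of these markers in the levels below was not tested. The rule requires each arousal library by itself to pass the ratio, so leaving one out tests only the minimum mean, which LOC117030569 missed without arousal 2 and ARHGAP42 without arousal 1. In whole tissue, fewer cells of a type and less RNA per cell cannot be told apart.

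Both chains of the interleukin 1 receptor were among the 20 genes. IL1R1 (NCBI gene 117033297) binds interleukin 1, and IL1RAP (NCBI gene 117036159) is the co-receptor that starts the signal. IL1R1 stood at 12.9 and 9.70 in summer active, 11.3 and 9.91 in torpor, 24.9 and 29.5 in arousal and 12.3 and 15.3 in winter active. Its arousal mean was 27.2 ± 3.28 (SD, n = 2), which was 2.41 times the summer mean, 2.57 times the torpor mean and 1.97 times the winter active mean. IL1RAP stood at 2.57 and 2.52 in summer active, 5.35 and 3.68 in torpor, 9.09 and 10.6 in arousal and 4.43 and 5.10 in winter active, with an arousal mean of 9.87 ± 1.099 (SD, n = 2). For both chains the 2 arousal libraries were close to each other and well apart from the rest, and the other 3 states lay near each other for IL1R1, while summer was lowest for IL1RAP.

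The rest of the interleukin 1 pathway did not share this order throughout. In the receptor family of 10 genes, chosen once the members were known, 5 had an arousal mean of at least 5, and IL1R1 and IL1RAP were the 2 with both arousal libraries highest. The decoy receptor IL1R2, which binds interleukin 1 without signalling, stood at 14.5 and 0.658 in summer active, 48.8 and 5.67 in torpor, 7.48 and 29.6 in arousal and 7.50 and 3.57 in winter active, with torpor 1 and arousal 2 high. SIGIRR, an inhibitory family member, stood at 28.9 and 21.8 in arousal, inside the range of 20.7 to 49.8 over the other libraries. Among 19 ligands and signal transducers with an arousal mean of at least 5, both arousal libraries were highest for 4, beside 11.2% of all genes. These were the kinase MAP3K7 and the 3 IkB kinase subunits CHUK, IKBKB and IKBKG. CHUK stood at 27.7 and 29.2 in arousal against at most 24.3 elsewhere and IKBKG at 25.2 and 18.5 against at most 16.1. Of 19 NF-kB feedback and cytokine genes, which are induced by this pathway, 0 had both arousal libraries highest, beside 11.2% of all genes at that level.

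Regulators of nutrient sensing and glycogen made up another group. FNIP2 (NCBI gene 117037834), a partner of folliculin in the control of the Rag GTPases and mTORC1, had the highest arousal mean of the 20, 41.5 ± 13.3 (SD, n = 2). It stood at 9.56 and 3.15 in summer active, 7.78 and 12.8 in torpor, 50.9 and 32.2 in arousal and 19.8 and 18.3 in winter active. Arousal 1 was above arousal 2, winter active came next, and summer active 2 was lowest, so that arousal was 6.53 times summer and 4.04 times torpor but 2.18 times winter active. The related FNIP1 stood at 6.76 and 7.65 in arousal and 6.65 and 7.60 in winter active, and folliculin itself (FLCN) at 30.2 and 27.5 and 24.2 and 29.4, so both overlapped between these states. In the folliculin and Rag list of 17 genes, built around FNIP2, MTOR, RPTOR and RICTOR also had both arousal libraries highest, beside 11.2% of all genes, and 3 of the 17 had both lowest, beside 7.85%. RICTOR, the subunit that defines mTORC2, stood at 1.51 and 2.86 in summer active, 1.57 and 3.16 in torpor, 9.15 and 8.21 in arousal and 5.30 and 6.94 in winter active.

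ARRDC4 (NCBI gene 117018950), an alpha-arrestin that promotes removal of glucose transporters from the cell surface, stood at 4.74 and 5.55 in summer active, 3.95 and 3.04 in torpor, 11.3 and 11.9 in arousal and 6.87 and 5.68 in winter active. The 2 arousal values almost coincided and torpor was lowest. Its relative ARRDC3 was at 18.1 and 23.8 in arousal with 8.42 and 17.0 in summer. TXNIP is the best known glucose-responsive member of the family. On the deposited scale TXNIP was at 998 and 1059.6 in arousal, inside the range of 839 to 1281 over the other libraries. Column totals on that scale were lowest in arousal. With each column rescaled to 1000000, ARRDC3 met the rule at a ratio of 1.56. TXNIP was not compared after that rescaling, so its contrast with ARRDC4 is given for the deposited scale alone. MLXIP, a transcription factor that drives ARRDC4 and TXNIP when glucose phosphates build up, stood at 18.6 and 10.6 in summer active, 8.31 and 14.7 in torpor, 30.1 and 21.0 in arousal and 19.8 and 16.6 in winter active, with the arousal libraries highest by a ratio of 1.06.

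PPP1R3B (NCBI gene 117021645) brings protein phosphatase 1 to glycogen and favours glycogen synthesis in liver. It stood at 5.58 and 1.18 in summer active, 5.62 and 2.17 in torpor, 10.2 and 13.2 in arousal and 6.80 and 6.22 in winter active, close to the threshold. In each state the library with the higher value was also the one with the higher hepatocyte marker sum. The part of liver transcripts in this level was not tested. PPP1R10 (NCBI gene 117020224), also called PNUTS, holds the same phosphatase in the nucleus and acts in transcription termination. It stood at 15.2 and 11.4 in summer active, 14.4 and 13.2 in torpor, 36.3 and 30.4 in arousal and 15.4 and 19.6 in winter active, so summer and torpor overlapped and arousal was 2.42 times torpor. WDR82, a partner of PPP1R10, had both arousal libraries highest at 55.8 and 42.8 against at most 41.8 elsewhere, and the catalytic subunit PPP1CB stood at 155 and 191 in arousal and 116 and 159.9 in winter active. Of 10 glycogen enzymes with an arousal mean of at least 5, only PHKA1 of phosphorylase kinase had both arousal libraries highest. Its ratio was 1.05, and 11.2% of all genes had this order.

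Enzymes of lipids and glycans formed the next group. ACER2 (NCBI gene 117031938), a Golgi ceramidase that releases sphingosine from ceramide, stood at 2.60 and 2.06 in summer active, 4.13 and 3.07 in torpor, 17.0 and 20.3 in arousal and 9.64 and 8.15 in winter active. Its arousal mean, 18.6 ± 2.32 (SD, n = 2), was 7.99 times summer, 5.17 times torpor and 2.09 times winter active, and the 4 states did not overlap in the order summer, torpor, winter active, arousal. Of 19 sphingolipid genes with an arousal mean of at least 5, CERS6 and SPTLC2, which build ceramide, also had both arousal libraries highest, with ratios of 1.09 and 1.07. With ACER2 that made 3 of 19, beside 11.2% of all genes. SELENOI (NCBI gene 117032844), the selenoprotein that makes phosphatidylethanolamine, stood at 1.16 and 2.02 in summer active, 1.83 and 2.14 in torpor, 6.49 and 7.61 in arousal and 2.08 and 4.07 in winter active; winter active 2 lay well above winter active 1. PCYT1A, of phosphatidylcholine synthesis, stood at 32.4 and 26.3 in arousal and 14.1 and 20.03 in winter active, and ETNK1, which phosphorylates ethanolamine, at 12.3 and 13.1 and 7.04 and 10.2. Both also had the 2 arousal libraries highest, which with SELENOI, the gene the list was built around, made 3 of 11 genes of ethanolamine and choline phospholipid synthesis, beside 11.2% of all genes. MGAT5 (NCBI gene 117026018), which adds a branch to N-glycans of surface receptors, stood at 2.94 and 3.15 in summer active, 1.80 and 5.91 in torpor, 12.2 and 14.0 in arousal and 7.71 and 6.79 in winter active, with the torpor libraries far apart. It was the single gene of 6 N-glycan branching enzymes, a list built around it, with both arousal libraries highest, beside 11.2% of all genes.

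SLC39A14 (NCBI gene 117037739), or ZIP14, imports zinc and non-transferrin iron and is an acute phase gene of the liver. It stood at 16.4 and 8.34 in summer active, 16.6 and 9.88 in torpor, 29.2 and 51.0 in arousal and 17.3 and 17.7 in winter active. Arousal 2, the library with the highest hepatocyte marker sum, was the highest, and the part of liver transcripts in this level was not tested. Of 9 zinc importers with an arousal mean of at least 5, SLC39A1, SLC39A6 and SLC39A9 also had both arousal libraries highest, at ratios of 1.00 to 1.16; that list was built around SLC39A14, and 11.2% of all genes had this order. MTF1, the zinc-sensing transcription factor, stood at 3.71 and 2.80 in summer active, 3.89 and 3.89 in torpor, 12.3 and 8.91 in arousal and 5.91 and 7.59 in winter active. No metallothionein gene was matched by symbol, so that part of the zinc response is not reported here.

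GTPase regulators made up 3 of the 20 genes. CHN2 (NCBI gene 117012160), a Rac GTPase-activating protein that binds diacylglycerol, stood at 1.64 and 1.18 in summer active, 2.43 and 1.94 in torpor, 6.55 and 6.29 in arousal and 3.34 and 3.47 in winter active, and the states were ordered without overlap from summer through torpor and winter active to arousal. ARHGAP42 (NCBI gene 117030977), a GTPase-activating protein known from smooth muscle, stood at 1.504 and 0.897 in summer active, 1.05 and 1.37 in torpor, 7.27 and 4.75 in arousal and 2.55 and 2.67 in winter active; summer and torpor overlapped, and arousal was 4.96 times torpor. SIPA1L2 (NCBI gene 117018567), of a family that turns off Rap GTPases, stood at 4.07 and 2.24 in summer active, 1.91 and 3.51 in torpor, 8.71 and 6.28 in arousal and 2.86 and 3.36 in winter active, and the 3 other states overlapped.

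The remaining genes with a symbol were 2 signalling genes, a deubiquitinase, a chromatin reader and a clock gene. APBA1 (NCBI gene 117031963), an adaptor that binds the amyloid precursor protein and synaptic proteins, had the highest ratio among genes with a symbol, 1.84. It stood at 3.78 and 1.94 in summer active, 3.95 and 3.85 in torpor, 7.27 and 7.87 in arousal and 3.24 and 3.25 in winter active, and the other 3 states overlapped or lay near each other. NTRK2 (NCBI gene 117032168), the receptor for brain-derived neurotrophic factor, stood at 2.71 and 1.48 in summer active, 1.28 and 3.80 in torpor, 6.87 and 7.90 in arousal and 3.57 and 4.47 in winter active. The low-affinity neurotrophin receptor NGFR stood at 48.1 and 35.1 in arousal and 27.9 and 29.7 in winter active, with both arousal libraries highest. USP32 (NCBI gene 117013283), which removes ubiquitin and acts on endosomes, stood at 9.03 and 11.7 in summer active, 6.51 and 9.72 in torpor, 25.8 and 23.9 in arousal and 14.9 and 15.5 in winter active, and BAZ2B (NCBI gene 117026193), a bromodomain protein of ISWI chromatin complexes, at 2.29 and 1.84 in summer active, 1.88 and 1.49 in torpor, 6.06 and 6.25 in arousal and 4.02 and 3.55 in winter active. In both genes winter active lay between arousal and the other states without overlap. The ISWI motors SMARCA1 and SMARCA5 and the related BAZ1A also had both arousal libraries highest, at ratios of 1.07, 1.08 and 1.03, while BAZ2A and BAZ1B did not. With BAZ2B, the gene the list was built around, that made 4 of 6, beside 11.2% of all genes.

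PER3 (NCBI gene 117026999) is a period gene of the circadian clock. It stood at 0.983 and 3.50 in summer active, 3.58 and 3.69 in torpor, 6.05 and 6.42 in arousal and 2.86 and 3.97 in winter active; the 2 torpor libraries were alike, and summer active 1 was lowest. With CRY1 and TEF, 3 of 16 clock genes with an arousal mean of at least 5 had both arousal libraries highest, beside 11.2% of all genes. CRY1 stood at 16.8 and 22.3 against at most 16.3 elsewhere and TEF at 39.8 and 38.3 against at most 33.9, ratios of 1.03 and 1.13. PER2, whose arousal mean was under 5, stood at 0.527 and 0.863 in summer active, 2.01 and 0.799 in torpor, 3.65 and 2.53 in arousal and 2.03 and 2.16 in winter active. Clock genes vary over the day, and the hour of sampling was not given in the labels.

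The 2 genes without a symbol behaved differently from each other. LOC117027332 had the highest ratio of all, 1.85, at 6.52 and 3.10 in summer active, 8.24 and 8.28 in torpor, 15.3 and 18.3 in arousal and 8.03 and 7.65 in winter active. LOC117030569 reached the minimum mean through arousal 2 alone: it stood at 0.628 and 0 in summer active, 0.368 and 0 in torpor, 0.953 and 10.6 in arousal and 0.0413 and 0 in winter active, and was listed at 0 in 3 libraries. The 4 libraries with the highest values of this gene were also the 4 with the highest hepatocyte marker sums, and the part of liver transcripts in its level was not tested.

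The threshold of 1.5 fell in a continuous range of ratios. Just inside it stood PPP1R3B at 1.51, BAZ2B at 1.51 and PER3 at 1.52. Just outside it stood ATRN at 1.497, GAREM1 at 1.496 and SLC26A2 at 1.489, with lower arousal values of 22.7, 6.42 and 9.11 against highest other values of 15.1, 4.29 and 6.12. Among genes with a symbol, 20 had a ratio from 1.4 to under 1.5 and 37 from 1.3 to under 1.4. By likeness to the median standardised log2 pattern of the 20 genes over 8 libraries, DAPK1 (r = 0.98) and CHRM2 (r = 0.97) were among the closest of 12296 other genes compared. DAPK1, a calmodulin-regulated kinase, stood at 6.42 and 4.94 in summer active, 5.26 and 5.22 in torpor, 14.6 and 14.4 in arousal and 7.91 and 9.85 in winter active. CHRM2, a muscarinic acetylcholine receptor, stood lower, at 0.261 and 0.167 in summer active, 0.405 and 0.511 in torpor, 2.55 and 3.10 in arousal and 1.03 and 1.71 in winter active.

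Of 35 gene lists fixed with earlier results of these data known, 13 hold cell type markers and 22 hold pathways. Only 4 of the 20 genes were on any list: PER3, FNIP2, ACER2 and SLC39A14. Immediate early genes (23 with an arousal mean of at least 5), integrated stress response genes (19) and mitosis genes (12) had 0 genes with both arousal libraries highest. Glucocorticoid-induced genes had 1 of 19, PDK4, and heat shock and chaperone genes 2 of 24. FOXO and fasting response genes had 8 of 21 (FOXO1, FOXO3, IRS2, INSR, PDK4, PCK1, CREBRF and HIPK3), beside 11.2% of all genes, and their median ratio was 0.898 against 0.690; CREBRF and HIPK3 were put on that list because of earlier results of these data. PCK1 is strongly expressed in hepatocytes. With columns rescaled to 1000000 it stood at 28.2 in arousal 1 and 394 in arousal 2, against 0.287 to 16.4 elsewhere. Arousal 2 is the library with the highest hepatocyte marker sum, and the 16.4 was in summer active 1. The count of 8 rests on the deposited scale, where column totals were 745098 in arousal 1 and 1276851 in summer active 1. On that scale the PCK1 gap between these 2 libraries was narrower. The part of liver transcripts in the list's count was not tested. In contrast, 45 of 61 ribosomal protein genes had both arousal libraries lowest, against 7.85% of all genes at that level. That count was made on the deposited scale, where the arousal column totals were lowest. It was not repeated after rescaling.

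**Figure D3:**
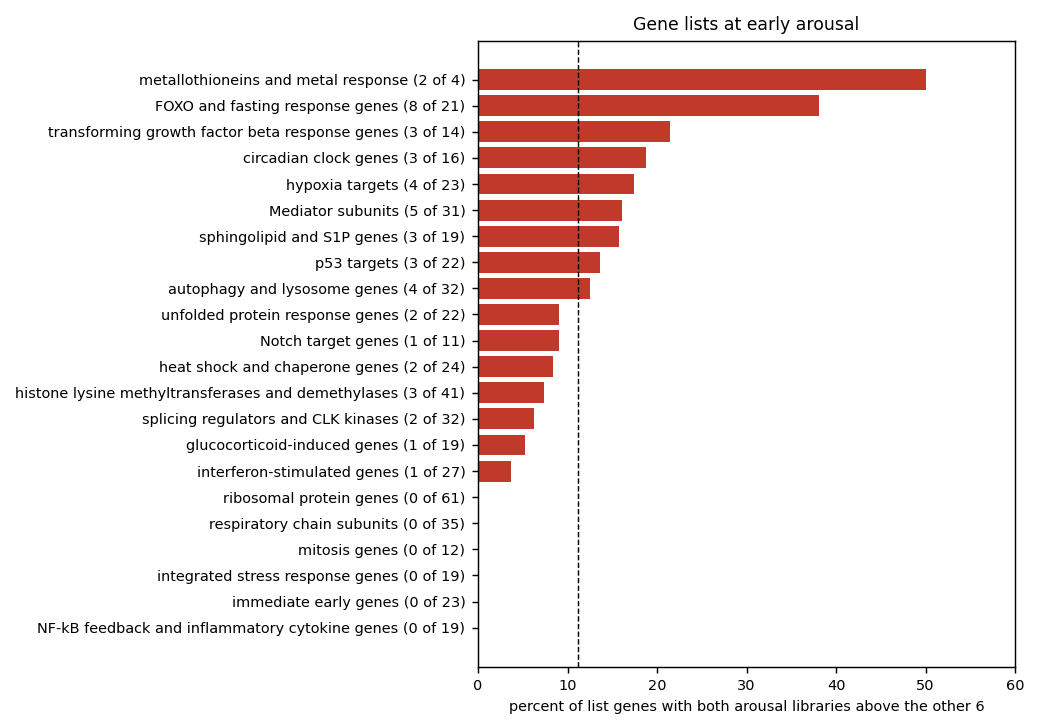
Percent of the genes of each pathway list with both arousal libraries above the other 6, among genes with an arousal mean of at least 5 (counts in brackets); the dashed line is the 11.2% of all genes at that level. FOXO and fasting response genes (8 of 21) lie above the line, and immediate early, integrated stress response, mitosis and ribosomal protein genes are at 0; the metal response list has 4 genes.

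No member lay directly beside another. In the gene order of RefSeq assembly mRhiFer1_v1.p, which served for names and order only, 0 of the 40 direct neighbours were members. Of these neighbours, 19 had an arousal mean of at least 5, and 2 of these had both arousal libraries highest: TNKS beside PPP1R3B and PTAR1 beside APBA1, at ratios of 1.24 and 1.08. TNKS, a poly-ADP-ribosyltransferase, stood at 9.35 and 6.30 in arousal against at most 5.09 elsewhere.

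The 3 comparisons that leave out arousal do not use the arousal values and were tested. They ask how the same genes stood in torpor and at 26 h after capture, and how both compared with summer. The 6 libraries of these states were fitted without the arousal libraries, with limma on log2(value + 1). Of 13466 genes with a mean of at least 1, 19 of the 20 genes were tested; LOC117030569 was too low. The comparisons share libraries. The rule caps these levels from above, since it used the highest of these 6 libraries to choose the genes. The tests are therefore not independent of that choice, and the all-gene shares below come mostly from genes not chosen this way.

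Winter active libraries stood above summer libraries for most of the genes, but none of the 19 passed after adjustment over all genes tested. All 19 had a log2 difference above 0, from 0.016 for SIPA1L2 to 1.60 for FNIP2, with a median of 0.64 against 0.044 over all genes. Both winter active libraries lay above both summer libraries for 15 of 19 genes and below for 0, beside 27.1% and 22% of all genes tested. ACER2 differed by 1.57 (SE 0.27, limma adjusted p = 0.083), FNIP2 by 1.60 (SE 0.47, adjusted p = 0.225) and CHN2 by 0.88 (SE 0.28, adjusted p = 0.258). For ACER2 that is 9.64 and 8.15 in winter active against 2.60 and 2.06 in summer, higher in 2 of 2 libraries. Of the 19, 0 passed and 4 had an unadjusted limma p under 0.05, all higher, beside 7.29% of all genes higher and 7.17% lower at that level. After adjustment 1 of all genes was called higher (0.00743%) and 72 lower (0.535%). Under median-of-ratios rescaling 18 of the 19 differences were above 0. By limma ACER2 passed after rescaling each column to 1000000 (adjusted p = 0.0443), and FNIP2 passed without summer active 1 (adjusted p = 0.0451).

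Winter active against torpor gave a smaller difference. The log2 difference was above 0 for 16 of 19 genes, with a median of 0.47 against 0.080 over all genes, and APBA1, PER3 and LOC117027332 had differences of -0.21, -0.08 and -0.07. Both winter active libraries lay above both torpor libraries for 12 of 19 genes and below for 2, beside 29.5% and 21.3% of all genes. ACER2 differed by 1.11 (SE 0.27, limma adjusted p = 0.318), USP32 by 0.85 (SE 0.27, adjusted p = 0.345) and BAZ2B by 0.83 (SE 0.28, adjusted p = 0.351). None of the 13466 genes passed by limma in this comparison (0%), while 1720 (8.7% of all genes with winter active higher, 4.07% with it lower) were under 0.05 before adjustment, among them 4 of the 19, all higher.

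Torpor and summer libraries differed least for these genes. The log2 difference was above 0 for 14 of 19 genes with a median of 0.12, against -0.056 over all genes, and the median was -0.13 without summer active 2. Both torpor libraries lay above both summer libraries for 6 of 19 genes and below for 1, ARRDC4, beside 20.4% and 26.2% of all genes. IL1RAP differed by 0.62 (SE 0.28, limma adjusted p = 0.349), ACER2 by 0.46 and FNIP2 by 0.73, while ARRDC4 differed by -0.46 (SE 0.26, adjusted p = 0.457), USP32 by -0.33 and BAZ2B by -0.19. By limma 0 of the 19 had an unadjusted p under 0.05, beside 6.11% of all genes higher and 9.73% lower at that level. After adjustment 0 of the 19 passed, beside 8 genes called higher (0.0594%) and 46 lower (0.342%) of all tested.

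**Figure D4:**
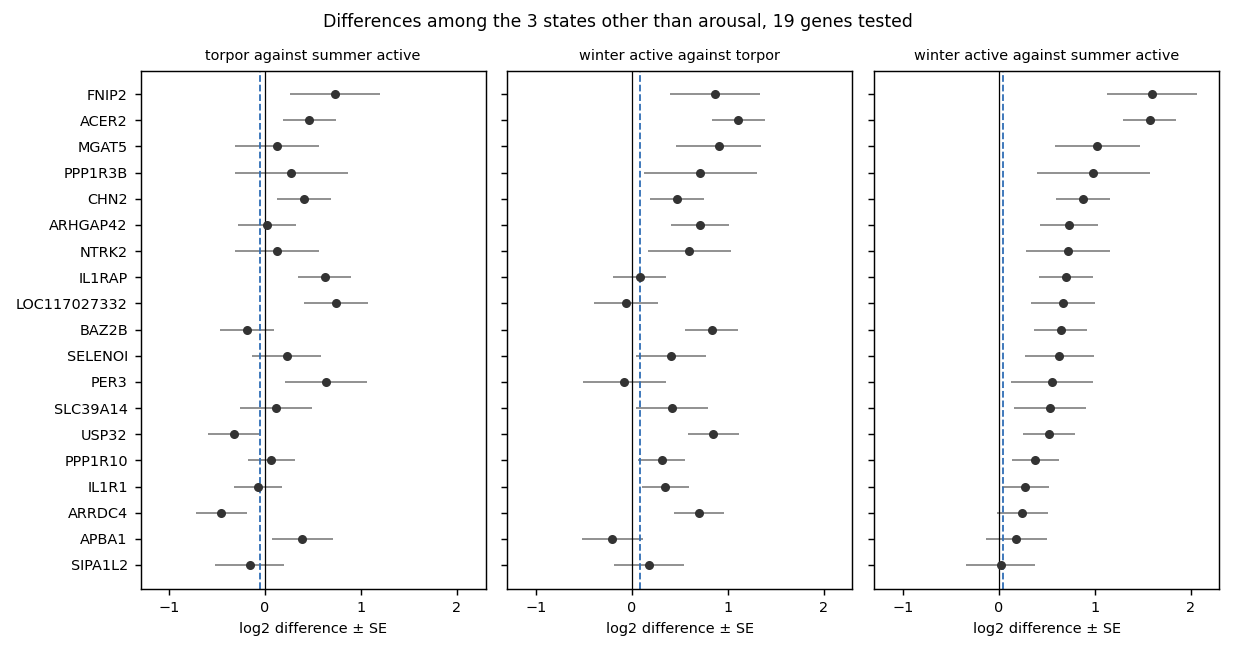
Log2 difference (log2(value + 1) scale, limma fit of 6 libraries) with its SE for the 19 tested genes in the 3 comparisons without arousal; the solid line is 0 and the dashed line the median of all 13466 genes. All 19 points lie right of 0 in winter active against summer active, and 0 of 19 passed an adjusted p of 0.05 in any panel.

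The level of the group over these 6 libraries can be given as the median log2 distance of each gene from its own mean. It was 0.31 in winter active 1 and 0.42 in winter active 2, where 15 and 18 of 19 genes lay above their own mean. It was -0.056 and -0.13 in torpor 1 and 2, -0.044 in summer active 1 and -0.45 in summer active 2, where 3 of 19 lay above. The median distance over all tested genes lay between -0.062 and 0.047 in these libraries. The group median thus stood apart from the all-gene median mainly in the winter active libraries and in summer active 2.

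The count of 20 depended on the scale, the thresholds and single libraries. Column totals of the deposited values were lowest in arousal, 745098 and 780490, against 828257 to 1331820 elsewhere. With each column rescaled to 1000000, 92 genes met the rule, and 30.4% of genes with an arousal mean of at least 5 had both arousal libraries highest. That scale raises arousal values relative to every other library, so the 92 hold all 20 genes by construction. Under median-of-ratios rescaling 17 genes met it, 16 of them among the 20, and SIPA1L2, PPP1R3B, BAZ2B and LOC117030569 did not. With a pseudocount of 1, 13 genes met it, all among the 20, and those 4 as well as PER3, NTRK2 and SELENOI did not. With a minimum mean of 10, 10 of the 20 remained, and at a ratio of 2 none did. Leaving out a library of another state can only loosen the rule, so such sets hold all 20 genes by construction and are given for their size alone. Without winter active 2, 161 genes met the rule, without both winter active libraries 438 and without summer active 1 67. With 1 arousal library in place of 2 there were 393 without arousal 1 and 387 without arousal 2; here only the minimum mean could remove a gene, and it removed ARHGAP42 and LOC117030569, respectively.

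**Figure D5:**
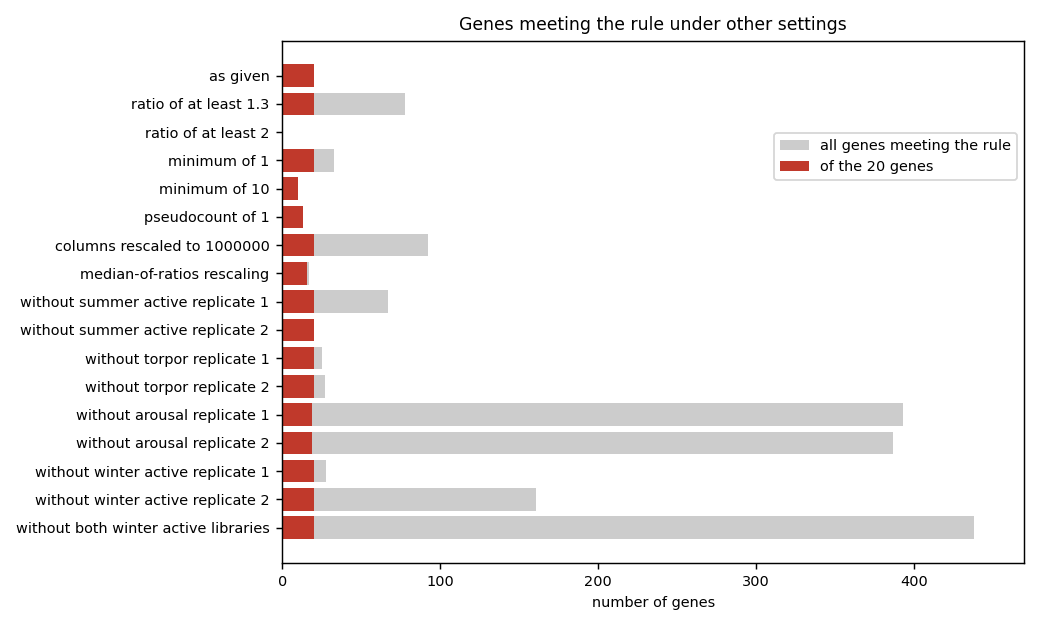
Number of genes meeting the rule as given and under each alternative (grey, whole bar), and how many of the 20 genes were among them (red). The whole bar runs from 0 to 438; settings that loosen the rule hold all 20 genes by construction, while a minimum mean of 10 kept 10 of them, a pseudocount of 1 kept 13 and median-of-ratios rescaling kept 16.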

How the data were processed

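Total spleen RNA was made into 8 libraries by Illumina protocols, per the labels. Abundances came from kallisto 0.46.2 with sleuth 0.30.0, per the submitters' processing notes. How transcripts were summed and rescaled, and on which transcriptome, was not stated there. The authors deposited 1 TPM-based signal per gene and library. Its columns do not sum to 1000000, so the values were treated as a rescaled signal, and the test planned for log values was used. All 20 gene identifiers matched RefSeq. No sequence is shown, and some related genes are not reported here.

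The rule was applied to the deposited values as they stand. The members, gene lists and tests were chosen with earlier results of these data known, and 15 gene families were chosen once the members were known. The states outside arousal were compared with limma 3.58.1 in R 4.3.3 (log2(value + 1), mean of at least 1, eBayes with a trend, 3 residual and 3.35 prior degrees of freedom), with Benjamini-Hochberg adjustment over 13466 genes and a threshold of 0.05. Arousal libraries were left out because they chose the members, although the highest of the 6 other libraries also entered the rule. Every member is named, and others by ratio, likeness, list or family. In simulated torpor against summer active with 200 of 13466 genes changed, the fit found 4.48% of genes changed by 1 on the log2 scale, 45.5% of those changed by 2 and 69.8% of those changed by 3, with 4.67% false calls.

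Alternatives were other ratios, minimum means, pseudocounts, filters and scales, all 8 libraries in 1 fit, a replicate block and leaving out each library. Leaving out both winter active libraries was added after the data were seen.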

Additional observations from a re-analysis of the deposited data

How the results depend on the processing

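The number of genes meeting the rule was 78 at a ratio of 1.3, 0 at a ratio of 2, 33 and 10 at minimum means of 1 and 10, 13 with a pseudocount of 1, 92 after rescaling columns to 1000000 and 438 without both winter active libraries; leaving out 1 library gave 20 to 393. Over all genes, torpor against summer active called 54 genes, 11 with no filter and 0 to 398 without 1 library. Winter active against torpor called 0, 18 with no filter and 0 to 5 without 1 library. Winter active against summer active called 73, 27 with no filter, 140 with all 8 libraries and 8 to 407 without 1 library. A mean of at least 5 left 6 members to test. The cause of these moves was not tested.

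Members called stayed at 0 in every fit of torpor against summer active and of winter active against torpor. In winter active against summer active the count was 1 with all 8 libraries, whose spread includes the arousal libraries that chose the members, and 1 after rescaling (ACER2), and 0 to 1 without 1 library. Over all alternatives ACER2 differed there by 1.45 to 2.00 (limma adjusted p = 0.0406 to 0.488) and FNIP2 by 0.92 to 2.27 (0.0451 to 0.824). Rescaling moved the all-gene median from -0.056 to 0.29 in torpor against summer active, from 0.080 to 0.24 in winter active against torpor and from 0.044 to 0.56 in winter active against summer active. Relative to that shift 13, 15 and 18 of 19 members lay above the median, against 14, 15 and 18 before. Genes called higher and lower then numbered 16 and 34 in the torpor comparison (8 and 46 before) and 31 and 44 in winter active against summer active (1 and 72 before). After rescaling, the number of members above 0 went from 14 to 18 of 19 in torpor against summer active. In winter active against torpor it went from 16 to 18. Among genes followed by name, USP32 turned to 0.025 and BAZ2B to 0.063 in torpor against summer active. PER3 turned to 0.061 in winter active against torpor. Leaving out 1 library gave PER3 -0.26 (without winter active 2) to 0.10 (without winter active 1) there.

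The labels number the biological replicates and do not say whether same-numbered libraries of different states share anything. Differences of replicate 1 and 2 correlated between states at r = 0.23 to 0.32 outside arousal and -0.19 to 0.12 with arousal. With the replicate block the calls were 44, 0 and 66, and 0 members were called. With 2 libraries per state and unknown depth, low values and differences near 1 are the least certain.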
